A study of Mus musculus with 26 samples.

Results

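Levels of 8 long noncoding RNAs were followed in mouse mesenteric arteries, the small resistance arteries that supply the gut. The members were Malat1, Neat1, Meg3, Rian, Mirg, Kcnq1ot1, H19 and Gas5, taken by symbol, and all 8 were found among the 21031 genes of the authors' normalized table. All of them passed the filter on low counts in each of the 4 mutant comparisons and in the comparison of library types described here. The study sequenced poly(A) RNA, per the labels, from male mice aged 8 weeks, in 26 libraries. The 3 wild-type libraries were the controls of 3 libraries from global Panx1 knockout mice, which lack the channel protein pannexin 1 in all tissues. In 3 further lines 1 residue of pannexin 1 was replaced. They comprised 3 Y198F+/+ libraries with 3 Y198F-/- controls, 4 S205A+/+ libraries with 4 S205A-/- controls, and 3 Y308F+/+ libraries with 3 Y308F-/- controls. In these genotype labels +/+ marks the mutants and -/- their controls. The controls were littermates or wild-type mice and no group received a treatment. The design text speaks of 3 vascular trees per genotype, whereas each S205A group has 4 libraries. The labels do not say that each library came from a separate animal, so p-values measure the spread between libraries, part of which may be technical.

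The labels also name each library. In 9 libraries the number in this name begins with 22, and they are called the 22 series here: all 3 libraries of Y198F mutants, and in the S205A line controls 1 to 3 with mutants 2 to 4. The labels do not explain this number. Total counts ran from 14895969 to 20152220 in the 22 series and from 17304603 to 23617902 in the other 17 libraries. Ribosomal RNA genes, nuclear and mitochondrial, took 0.174% ± 0.0204 of counts (SD, n = 9) in the 22 series, against 3.83% ± 1.30 (SD, n = 17) elsewhere, and the first principal component, with 28.2% of the variance, separated the same libraries. Since these 9 are also the libraries low in ribosomal RNA, ribosomal RNA values between the library types are a description, with no test. Panx1 itself had 11 to 27 counts in the 3 knockout libraries and 61 to 96 in the 3 wild-type libraries. S205A control 1 had 16, within the knockout range, and S205A control 3 and S205A mutant 4 had 28 and 29. The summed signal of 7 smooth muscle markers was above that of each other marker list in all 26 libraries. These are bulk samples, in which fewer cells of a type and less RNA per cell cannot be told apart.

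Long noncoding RNAs are transcripts without a long open reading frame, and many act in the nucleus. Malat1 gathers in nuclear speckles, bodies rich in splicing factors, and Neat1 is the scaffold of paraspeckles, bodies built from this RNA and a set of RNA-binding proteins. Malat1 and the long isoform of Neat1 are cleaved at their 3′ end by RNase P at a tRNA-like structure and end in a triple helix instead of a conventional poly(A) tail. The short isoform of Neat1 is polyadenylated, and the counts per gene do not separate the isoforms. Meg3, Rian and Mirg are transcribed from the maternal copy of the imprinted Dlk1-Dio3 domain, and Rian and Mirg carry clusters of small nucleolar RNAs and microRNAs. H19 is transcribed from the maternal copy beside Igf2, Kcnq1ot1 from the paternal copy within Kcnq1, where it silences neighbouring genes. Gas5 hosts small nucleolar RNAs in its introns, and its spliced transcript carries a 5′ terminal oligopyrimidine tract and is degraded when translated.

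The 3′ regions of Malat1 and Neat1 are shown because Malat1 and long Neat1 end without a conventional tail and the largest difference among the members was in Malat1. Malat1 (ENSMUSG00000092341) lies on chr19:5845717-5853602 of GRCm39, minus strand, as 1 exon of 7886 bases, and Neat1 (ENSMUSG00000092274) on chr19:5874736-5897132, minus strand, as 1 exon of 22397 bases. Each sequence is 130 bases of the GRCm39 transcript strand, 5′ to 3′. For Malat1 it is chr19:5846016-5846145, set to end with the last run of 10 or more A, 299 bases before the annotated gene end. For Neat1 it is chr19:5874736-5874865, up to the annotated end. Capitals mark the uracil-rich motifs TTTCTTTT and TTTGCTTT and, near the end, runs of 5 or more A.
Malat1: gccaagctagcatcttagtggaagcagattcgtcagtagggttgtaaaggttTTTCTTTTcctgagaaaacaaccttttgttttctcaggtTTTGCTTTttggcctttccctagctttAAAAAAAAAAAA
Neat1: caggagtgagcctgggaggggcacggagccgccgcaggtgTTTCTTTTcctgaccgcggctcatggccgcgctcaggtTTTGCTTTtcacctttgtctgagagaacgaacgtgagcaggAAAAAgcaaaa

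Both sequences held both motifs on the transcript strand. Of the last 130 bases of 73236 canonical GENCODE vM39 transcripts, 1.61% held TTTCTTTT, 0.763% held TTTGCTTT and 21, or 0.0287%, held both. The Malat1 window does not lie at an annotated end, so these shares are a direct background for Neat1 alone. The A run encoded by the genome was 12 bases long in Malat1, whose window was set by such a run, and 5 in Neat1.

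Malat1 separated the 2 library types without overlap. Of 21031 genes, 212, or 1.01%, were lower in the 22 series without overlap and 667, or 3.17%, were higher. Its normalized signal (counts divided by the authors' library size factor) was 9055, 11010 and 11653 in the 3 Y198F mutants. It was 10173, 10128 and 9230 in S205A controls 1 to 3, and 12665, 13579 and 15985 in S205A mutants 2 to 4. All 9 belong to the 22 series. S205A control 4 was at 124651 and S205A mutant 1 at 76430, the only libraries of that line outside the 22 series. Malat1 was 80239, 85706 and 86705 in wild type and 77622, 82091 and 60313 in the knockout. It was 89068, 67375 and 76729 in the Y198F controls. The Y308F controls were at 102345, 73368 and 84465, and the Y308F mutants at 78614, 79752 and 73439. Thus the lowest of the 17 other libraries was 3.77-fold above the highest of the 22 series. Only the S205A line had both library types, with 1 control and 1 mutant outside the 22 series. The mean was 11498 ± 2259 (SD, n = 9) in the 22 series, against 82289 ± 14259 (SD, n = 17) elsewhere, a ratio of 7.16. As a share of all counts Malat1 fell from 0.437% ± 0.0660 (SD, n = 17) to 0.0627% ± 0.0124 (SD, n = 9).

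Library type was compared in edgeR's quasi-likelihood test with the 8 groups as a covariate, so that the estimate rests on the S205A line, where 6 libraries of the 22 series stood against 2 others. Malat1 was lower in the 22 series by a log2 change of -3.11 (SE 0.183; adjusted p in edgeR = 1.03e-10). Across all genes 2189 of 18715, or 11.7%, passed this test, 1417 (7.57%) higher and 772 (4.13%) lower in the 22 series. Among the members 2 of 8 passed, Malat1 and Kcnq1ot1, both lower. The fitted value of all 8 members was below 0, with a median of -0.61 against -0.01 over all genes tested. This median was -0.27 without S205A control 4, with 7 members lower and 1 higher, and -0.94 without S205A mutant 1. With no group term, 9 libraries against 17, Malat1 was at -2.83 and 7 of 8 members passed, all but Mirg, against 36.2% of all genes (5953 of 16464). One of the 7, H19, met the filter on low counts through the other libraries, in which it was high, so its call is no support. In control libraries alone Malat1 was at -3.15 and 6 members passed, all but Mirg and H19, against 15.7% of all genes (2752 of 17474). Neither this fit nor that of 9 against 17 has a group term, so library type and mouse line are not separated in either. Among controls the 22 series was S205A controls 1 to 3 alone, and outside it only S205A control 4 shares their line. When S205A control 4 was left out, 282 genes (1.51%) passed instead of 2189 and Malat1 was at -2.45. Without S205A mutant 1 the count was 932 (4.99%) and Malat1 was at -3.65. Malat1 passed in each of the 26 fits that left out 1 library.

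**Figure D1:**
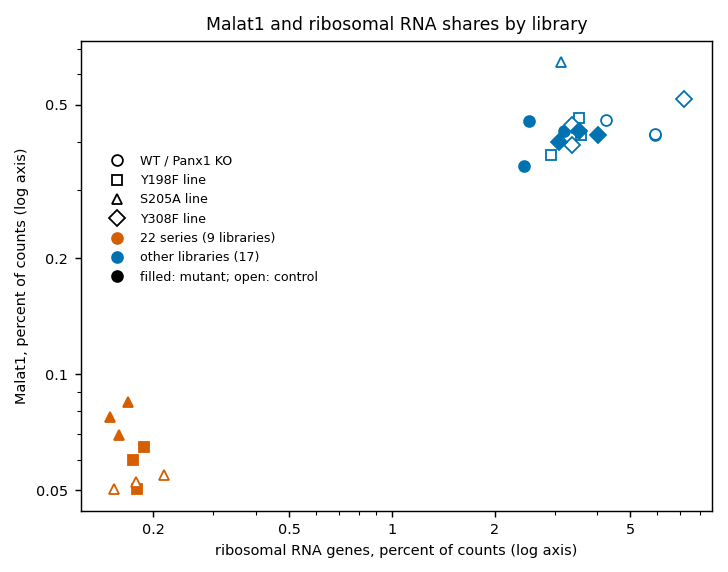
Share of counts from Malat1 (vertical, percent, log axis) against the share from ribosomal RNA genes (horizontal, percent, log axis) in each of 26 libraries. Colours give the library series, marker shapes the mouse line, and filled markers the mutants. The 9 libraries of the 22 series lie at a mean of 0.0627% Malat1 and 0.174% ribosomal RNA, apart from the other 17 at 0.437% and 3.83%.

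Other RNAs were also lower in the 22 series. The 18S ribosomal RNA sequence Rn18s-rs5 had a log2 change of -4.93 (SE 0.249), as a description. The 7SK RNA Rn7sk, which has no poly(A) tail and restrains transcription elongation, was at -6.75 (SE 0.456), and the Cajal body RNA Scarna2 at -4.87 (SE 0.799). Both are also descriptions: of 11 listed small structured RNAs, 0 passed the filter on low counts where both groups were of the 22 series, so these entered through the libraries in which they were high. Their part in the Malat1 difference was not tested. Of 2127 long noncoding RNAs tested, 59, or 2.77%, were lower in the 22 series and 9, or 0.423%, were higher, against 4.13% and 7.57% of all genes. Their median log2 change was -0.16, against -0.01 over all genes. Without Malat1 the class took 0.867% ± 0.0570 of counts (SD, n = 9) against 0.938% ± 0.0826 (SD, n = 17). Malat1 ranked 46 from the lowest fold change among these 2127 genes. Of 25 further named long noncoding RNAs tested, 4 were lower and 0 higher by edgeR, where 4.13% of all genes were lower and 7.57% higher. They were Lncpint at -2.29 (SE 0.388), the smooth muscle transcript Carmn at -0.89 (SE 0.261), Oip5os1 at -0.53 (SE 0.132) and Norad at -0.29 (SE 0.0953). Over the 26 libraries the genes whose centred log2 CPM (counts scaled to library size) lay nearest to Malat1 were mt-Atp8, Slirp and Lars2, with root mean square differences of 0.45, 0.49 and 0.53 against a median of 1.39 over 12907 genes.

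Neat1 differed less between the library types than Malat1. Its normalized signal was 9506, 12448 and 15085 at the lowest, median and highest of the 22 series, and 13143, 16857 and 25759 in the others, so the ranges overlapped. The means were 12401 ± 1770 (SD, n = 9) and 18021 ± 3516 (SD, n = 17), a ratio of 1.45. The library-type test gave a log2 change of -0.22 (SE 0.178; adjusted p in edgeR = 0.499). With no group term it passed at -0.53 (SE 0.104; adjusted p in edgeR = 0.000152). Per kilobase of annotated exon, Malat1 stood 13.5-fold ± 4.09 (SD, n = 17) above Neat1 in the other libraries and 2.701-fold ± 0.764 (SD, n = 9) above it in the 22 series. The lowest of these ratios outside the 22 series, 8.87, lay above the highest in it, 4.07. The ratios rest on the full 22397 bases of Neat1, and its short isoform was not counted apart. Malat1 and Neat1 were not correlated within the 9 libraries of the 22 series (Pearson r = -0.233, exact permutation adjusted p = 0.595, and Spearman rho = -0.167, adjusted p = 0.723) or within the 17 others (r = -0.281, permutation adjusted p = 0.401, and rho = -0.255, adjusted p = 0.513). Without the 2 libraries farthest from the median, r was -0.219 and -0.0326.

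Transcripts of some proteins that build paraspeckles with Neat1 were lower in the 22 series. The proteins themselves were not measured. Of 21 listed genes of paraspeckle proteins, all tested, 8 were lower and 0 were higher by edgeR's test. Over all genes 4.13% were lower. The median log2 change of the 21 was -0.21, against -0.01 over all genes. The largest changes were in Taf15, an RNA-binding protein of the FET family, at -1.07 (SE 0.143), and Hnrnpa1, a splicing regulator, at -0.80 (SE 0.0993). Hnrnpr was at -0.52 (SE 0.104) and Hnrnph3 at -0.51 (SE 0.111). Of 21 listed genes for proteins of nuclear speckles, where Malat1 resides, 1 was higher, the RNA helicase gene Ddx39b at 0.45 (SE 0.108). Another 1 was lower, Pnn at -0.63 (SE 0.151). In the Y198F comparison, whose mutants all belong to the 22 series, 7 genes of paraspeckle proteins were lower and 0 higher. For nuclear speckle proteins 3 genes were lower and 1 higher, where 5.48% of all genes were lower and 9.55% higher. Against S205A controls 1 to 3, of the same series, 0 of the 21 passed edgeR's test, as did 0% of all genes.

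**Figure D2:**
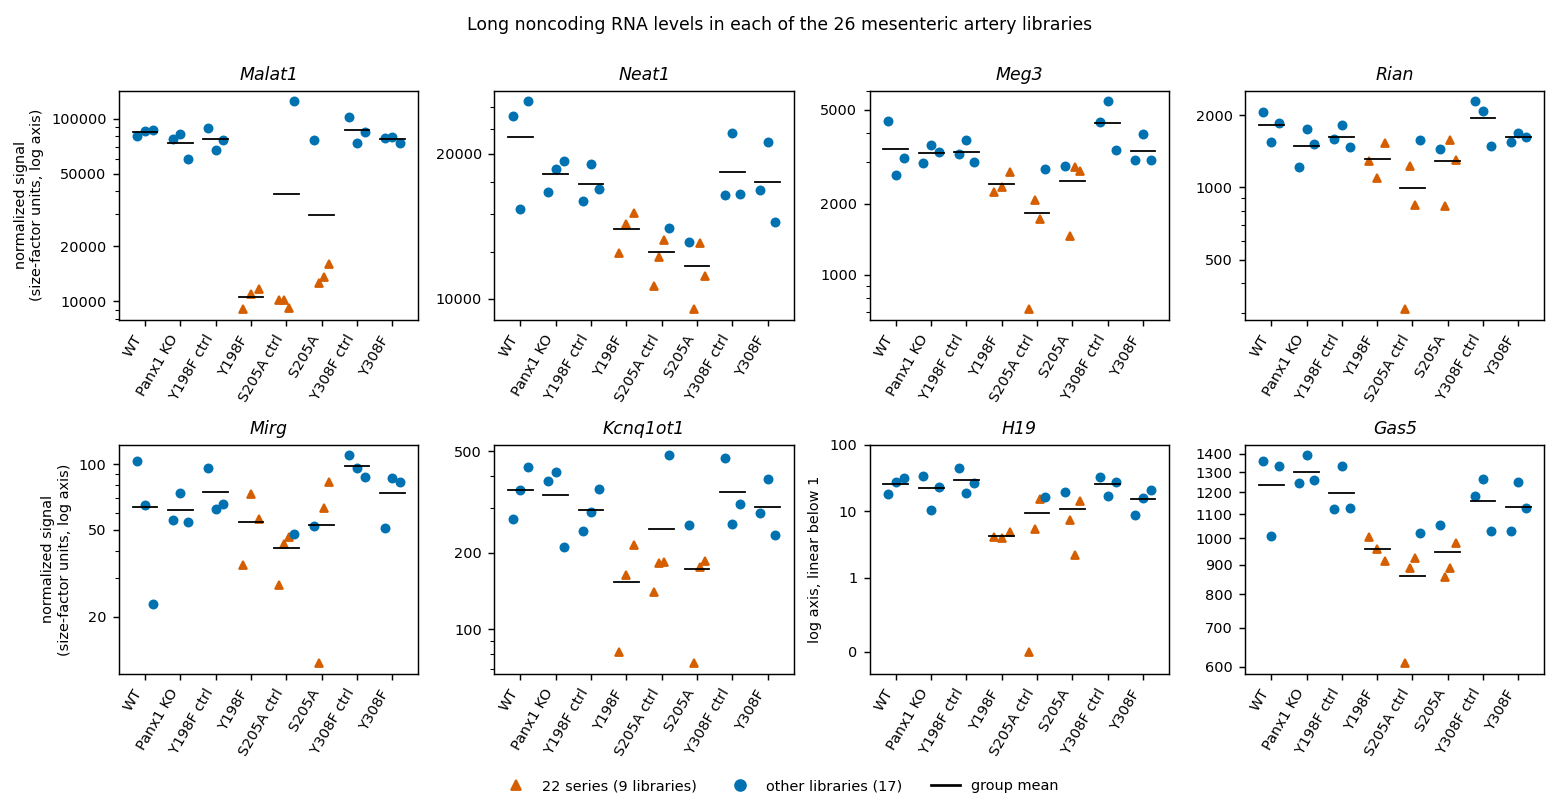
Normalized signal (counts divided by a library size factor, log axis, linear below 1 for H19) of each long noncoding RNA in 26 libraries, by group. Each point is 1 library, triangles mark the 22 series and lines the group means. Malat1 runs from 9055 to 15985 in the 22 series and from 60313 to 124651 elsewhere, whereas the other members, except Gas5, overlap. Of all genes 1.01% were lower in the 22 series without overlap and 3.17% were higher.

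Kcnq1ot1 was the other member past the threshold between library types. It lies on chr7:142731402-142850327 of GRCm39, minus strand, opposite Kcnq1, with which it shares 834 exon bases. Its normalized signal was 81.4, 163 and 215 in the Y198F mutants and 139, 183 and 184 in S205A controls 1 to 3. It was 73.4, 175 and 184 in S205A mutants 2 to 4. S205A control 4 had 482 and S205A mutant 1 had 256. The 17 other libraries ran from 210.3 to 482, and 1 library of the 22 series, Y198F mutant 3 at 215, reached into that range. The log2 change was -1.18 (SE 0.336; adjusted p in edgeR = 0.0251). This call was lost without S205A control 4 (-0.83, edgeR adjusted p = 0.527), without S205A mutant 1 (-1.51, edgeR adjusted p = 0.0646), in the S205A line alone (adjusted p = 0.0691, where 5.74% of genes passed) and without the filter on low counts (adjusted p = 0.0630). Kcnq1, the potassium channel gene on the other strand, was 143 ± 54.9 (SD, n = 9) in the 22 series and 139 ± 42.2 (SD, n = 17) outside it. Cdkn1c, a cell-cycle inhibitor that Kcnq1ot1 silences in cis, was 161 ± 49.5 (SD, n = 9) and 229 ± 59.2 (SD, n = 17), and its correlation with Kcnq1ot1 was -0.104 in the 22 series and 0.171 outside it (Pearson, permutation adjusted p = 0.801 and 0.595). The Spearman rho was -0.317 and 0.201 (permutation adjusted p = 0.540 for both), and r without the 2 farthest libraries was 0.0636 and 0.352. The nearest gene in pattern was Zbtb20, a transcriptional repressor, with a root mean square difference of 0.35 on the log2 scale.

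H19 was scarce. It lies on chr7:142129262-142133957 of GRCm39, minus strand, and had 2 to 15 counts in 8 libraries of the 22 series, 0 counts in S205A control 1, which allows up to 3, and 9 to 42 counts in the other 17. Its normalized signal was 4.07, 3.93 and 4.90 in the Y198F mutants against 44.1, 18.96 and 26.2 in their controls. S205A controls 1 to 4 had 0, 5.50, 15.5 and 16.3, and S205A mutants 1 to 4 had 19.5, 7.34, 2.21 and 14.5. The library-type test gave -1.24 (SE 0.704; adjusted p in edgeR = 0.288). Igf2, the growth factor gene of the same imprinted domain, had 261 ± 109 (SD, n = 9) in the 22 series, against 360 ± 117 (SD, n = 17) elsewhere. H19 and Igf2 were not correlated beyond the threshold in the 22 series (r = 0.458, permutation adjusted p = 0.339, and rho = 0.183, adjusted p = 0.723) or outside it (r = 0.364, permutation adjusted p = 0.315, and rho = 0.338, adjusted p = 0.329). Without the 2 farthest libraries r was -0.434 and 0.252. Of 16 tested genes listed around H19 and Kcnq1ot1, 3 were higher in the 22 series and 0 lower by edgeR, where 7.57% of all genes were higher and 4.13% lower: Tssc4 at 0.56 (SE 0.167), Mrpl23 at 0.51 (SE 0.154) and Osbpl5 at 0.39 (SE 0.118).

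Gas5 showed the least spread of the members, with a coefficient of variation of 13.1% in the 22 series and 11.01% outside it. It lies on chr1:160861793-160866118 of GRCm39, plus strand, and 10 small nucleolar RNA genes are annotated inside it. These 10 genes held 0 counts in all 26 libraries, but they share exon bases with Gas5 on the same strand, where reads of 2 genes may go unassigned, so the counts do not measure them. The normalized signal of Gas5 was 608, 912 and 1005 at the lowest, median and highest of the 22 series and 1009, 1182 and 1391 in the others. The ranges met without overlapping, at 1005 and 1009, and the means, 892 ± 117 (SD, n = 9) and 1185 ± 130 (SD, n = 17), differed 1.33-fold. Genes that were lower in the 22 series without overlap made up 1.01% of the 21031. The library-type test within the S205A line gave -0.27 (SE 0.133; adjusted p in edgeR = 0.214). Of 21 other tested host genes of small nucleolar RNAs, 2 were higher, Snhg20 at 0.98 (SE 0.263) and Rack1, a ribosomal protein, at 0.44 (SE 0.125), and 0 were lower by edgeR, near the 7.57% of all genes that were higher. Snhg1, another such host gene, was 278 ± 34.4 (SD, n = 9) and 298 ± 44.5 (SD, n = 17), and its correlation with Gas5 did not pass the threshold in either series (r = 0.253 and 0.368, permutation adjusted p = 0.595 and 0.315; rho = 0.650 and 0.338, adjusted p = 0.174 and 0.329). Without the 2 farthest libraries r was 0.793 and 0.376.

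The 3 maternal transcripts of the Dlk1-Dio3 domain lie in a row on the plus strand of chromosome 12 in GRCm39: Meg3 at chr12:109506877-109538165, Rian at chr12:109570242-109628150 and Mirg at chr12:109696198-109715898. The Meg3 promoter is shown because Meg3 and Rian varied together. RefSeq gives it on GRCm38.p6, chr12:109540746-109541045, plus strand, from 250 bases before to 50 after the transcript start. Capitals mark the cyclic AMP response element TGACGTCA, whose first base is at -57, and the TATA-like motif TATATAA at -27.
Meg3 promoter: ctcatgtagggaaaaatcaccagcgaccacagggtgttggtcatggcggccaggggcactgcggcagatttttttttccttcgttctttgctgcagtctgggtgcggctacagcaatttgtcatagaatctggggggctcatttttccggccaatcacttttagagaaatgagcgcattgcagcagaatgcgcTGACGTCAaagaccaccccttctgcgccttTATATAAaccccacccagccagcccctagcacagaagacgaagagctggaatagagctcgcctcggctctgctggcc

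Searched on both strands, TGACGTCA was in 588 of 32851 promoters of this length, or 1.79%, and TATATAA in 1065, or 3.24%. The 2 motifs do not overlap each other here. RefSeq's table held 8 promoters of 6 members, and Gas5 was the other member with each motif. A match describes the letters of the window and is not a measured site.

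Meg3 had a normalized signal of 2247, 2350 and 2720 in the Y198F mutants, 715, 2085 and 1733 in S205A controls 1 to 3 and 1456, 2871 and 2746 in S205A mutants 2 to 4. S205A control 4 had 2820 and S205A mutant 1 had 2895. In the 17 libraries outside the 22 series it was 2640, 3237 and 5448 at the lowest, median and highest. Rian was 1293, 1095 and 1535 in the Y198F mutants, 312, 1234 and 848 in S205A controls 1 to 3 and 836, 1578 and 1304 in S205A mutants 2 to 4. It was 1220, 1592 and 2287 at the lowest, median and highest of the others. S205A control 1 was the lowest of the 26 libraries for both, and for H19 and Gas5. Mirg was much scarcer, at 12.2, 46.5 and 83.2 at the lowest, median and highest of the 22 series and 22.9, 66.0 and 110 in the others. Between library types the log2 changes were -0.60 for Meg3 (SE 0.297; adjusted p in edgeR = 0.213), -0.62 for Rian (SE 0.322; adjusted p in edgeR = 0.247) and -0.13 for Mirg (SE 0.486; adjusted p in edgeR = 0.914), with overlapping ranges for each.

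Meg3 and Rian rose and fell together from library to library. Within the 22 series Pearson's r was 0.979 and Spearman's rho 0.933 (9 libraries, exact permutation, adjusted p = 0.00196 and 0.00736). Without the 2 libraries farthest from the median r was 0.883. Within the 17 other libraries r was 0.788 and rho 0.743 (permutation adjusted p = 0.00196 and 0.00736), and r without 2 was 0.707. Meg3 and Mirg passed the threshold by rank alone: rho was 0.833 in the 22 series and 0.694 outside it (permutation adjusted p = 0.0331 and 0.0135), and r was 0.645 and 0.579 (adjusted p = 0.300 and 0.0895; 0.587 and 0.496 without the 2 farthest libraries). Rian and Mirg did not pass in either series (r = 0.503 and 0.345, permutation adjusted p = 0.315 for both; rho = 0.633 and 0.461, adjusted p = 0.174 for both), and without the 2 farthest libraries r was 0.175 and 0.0917. These were 16 relations over 8 pairs and 2 library types, and the p-values were adjusted over the 16. Meg3 with H19, a pair from different imprinted domains, gave r = 0.542 in the 22 series and -0.153 outside it (permutation adjusted p = 0.315 and 0.595), rho = -0.0667 and -0.206 (adjusted p = 0.880 and 0.540), and r = -0.448 and -0.0294 without the 2 farthest libraries. As a description, Rian was the nearest of 12907 genes to Meg3 in pattern over the 26 libraries and Meg3 the nearest to Rian, with a root mean square difference of 0.17 on the log2 scale, against medians of 0.62 and 0.61 over all genes. The second nearest gene to Meg3 was the noncoding RNA Gm27000, and Meg3 was the second nearest to Mirg.

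**Figure D3:**
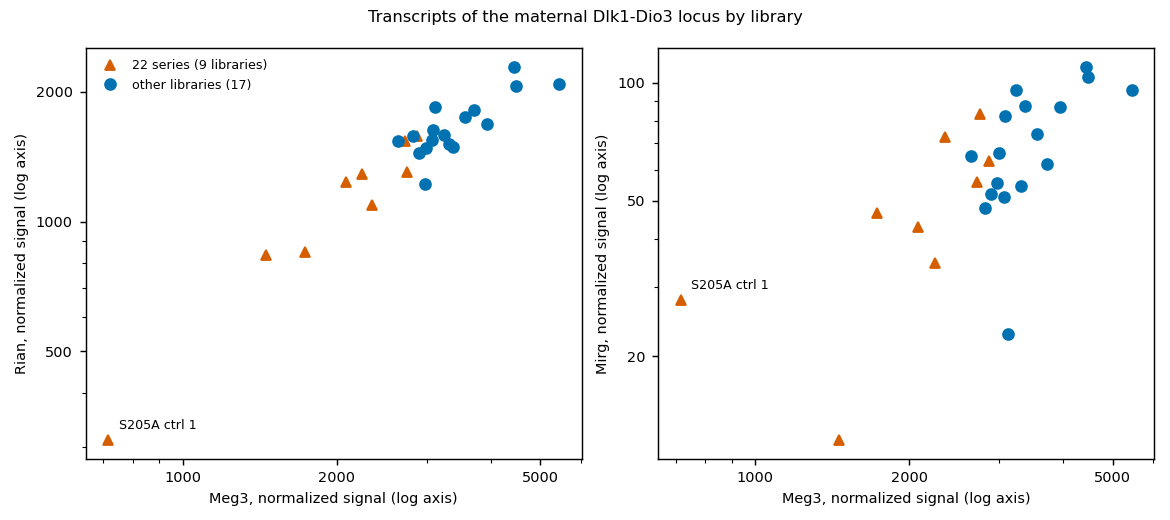
Normalized signal of Rian (left) and Mirg (right) against that of Meg3 in 26 libraries, all axes logarithmic, with triangles for the 22 series and circles for the others. Rian lies along Meg3 in both series (r = 0.979 and 0.788), and S205A control 1 is lowest for both, at 715 and 312.

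The ratio of Rian to Meg3 varied less than either. Rian's normalized signal was 50.2% ± 5.89 of that of Meg3 (SD, n = 26), from 38.2% to 59.2%, while Meg3 itself ran from 715 to 5448. Group means of the ratio lay between 44.6% ± 6.65 in the Y308F controls and 54.5% ± 7.41 in wild type (SD, n = 3 for both), a difference within the spread of the libraries. Mirg was 2.16% ± 0.686 of Meg3 (SD, n = 26). The paternally expressed protein-coding genes of the domain were near or below the floor of 3 counts in many libraries: Dlk1 had a mean normalized signal of 0.544 ± 1.63 (SD, n = 9) in the 22 series and 2.78 ± 6.54 (SD, n = 17) outside it, and Rtl1 had 1.499 ± 2.15 and 11.9 ± 8.99. Of 5 other tested genes of the domain, 0 passed edgeR's library-type test.

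The microRNAs of these host RNAs are shown because the hosts are their precursors, while the libraries measured the hosts and not the mature forms. RefSeq's mature sequences are given 5′ to 3′ with the seed, bases 2 to 8, in capitals. Meg3 hosts miR-770, Mirg hosts miR-134, miR-377 and miR-410, and H19 hosts miR-675.
miR-770-5p: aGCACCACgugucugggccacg
miR-134-5p: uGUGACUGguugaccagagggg
miR-377-3p: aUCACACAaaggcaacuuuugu
miR-410-3p: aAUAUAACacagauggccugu
miR-675-5p: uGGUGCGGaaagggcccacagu

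No 2 of these 5 share a seed. The microRNA genes annotated inside the hosts were assigned few counts: 0 over the 26 libraries for the 2 genes in Meg3 and the 1 gene in H19, 21 for the 4 genes in Rian and 62 for the 14 in Mirg. Of the 13 small nucleolar RNA genes within Rian, 12 had 0 counts, and Gm24564, which shares 0 exon bases with Rian, had 53. Reads in exon bases shared with a host may likewise go unassigned, so these counts do not measure the small RNAs.

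The 4 libraries lowest in Meg3 were among the 6 lowest for fibroblast and matrix markers: S205A control 1 ranked 2, mutant 2 ranked 6, control 3 ranked 3 and control 2 ranked 1 from the lowest of 26. Sums of other cell types varied in these libraries. The summed signal of 8 fibroblast and matrix markers, all detected, was 44617 in S205A control 1, the second lowest of 26, and 38108 and 48410 in S205A controls 2 and 3. It was 60754 in S205A mutant 2, against 105387 and 154008 in S205A mutants 4 and 3. S205A control 4, with Meg3 at 2820, had the fifth lowest sum, 56869. The 7 Schwann cell and myelin markers were lowest in S205A controls 1 to 3, at 2861, 2069 and 2672. S205A mutant 2, with Meg3 at 1456, had a Schwann cell and myelin sum of 4967. The neuronal and lymphoid sums were lowest in S205A control 1, at 1106 and 29.8, whereas S205A control 2 had a neuronal sum of 4337, the second highest, and S205A mutant 2 a lymphoid sum of 458, the fourth highest. Between library types 0 of the 8 fibroblast and matrix markers passed edgeR's test, with a median log2 change of -0.72. Their part in the Meg3 and Rian values was not tested. In S205A control 1 the 7 smooth muscle markers summed to 900212, the highest of the 26, and the 6 endothelial markers to 22120, the lowest, while in S205A control 2 the endothelial sum was 186949, the highest.

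Per kilobase of annotated exon, the order of the members outside the 22 series was Malat1 at 10435 ± 1808 (SD, n = 17), Neat1 at 805 ± 157, Gas5 at 280 ± 30.8, Meg3 at 180 ± 38.0, Rian at 52.5 ± 8.41, H19 at 8.12 ± 3.19, Mirg at 7.38 ± 2.42 and Kcnq1ot1 at 3.53 ± 0.905 normalized counts per kilobase. H19 and Mirg lay within each other's spread. In the 22 series the order was Malat1 at 1458 ± 286 (SD, n = 9), Neat1 at 554 ± 79.0, Gas5 at 211 ± 27.6, Meg3 at 109 ± 36.4, Rian at 34.9 ± 12.4, Mirg at 5.05 ± 2.32, H19 at 2.26 ± 1.85 and Kcnq1ot1 at 1.65 ± 0.516. There H19 and Kcnq1ot1 lay within each other's spread, and so did Mirg and H19 at their edges. The lengths are unions of GENCODE vM39 exons, 31981 bases for Rian against 3223 in its canonical transcript, and the order changed with that choice. Per kilobase of the canonical transcript, an alternative chosen after seeing the data, Meg3 at 2099 ± 443 and Gas5 at 1771 ± 195 (SD, n = 17) stood above Neat1 outside the 22 series. Kcnq1ot1, at 192 ± 49.3 (SD, n = 17), then stood above Mirg at 18.8 ± 6.15 and H19 at 10.4 ± 4.11 instead of last. In the 22 series Malat1, Gas5 at 1333 ± 174 and Meg3 at 1270 ± 424 (SD, n = 9) lay within each other's spread on that length. Malat1 and Neat1 have the same length on either choice, and neither choice covers the short isoform of Neat1 alone.

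Loss of pannexin 1 was compared with wild type to find genes that depend on the channel. No member passed the threshold: 0 of 8 passed edgeR's test, 0 had an unadjusted p under 0.05, and DESeq2 and voom also called 0. Across all genes 5 of 16193, or 0.0309%, passed. Malat1, with the values given above, overlapped between the groups, at 73342 ± 11503 in the knockout (SD, n = 3) and 84217 ± 3481 in wild type (SD, n = 3). Its log2 change was -0.19 (SE 0.176; adjusted p in edgeR = 0.729, exact permutation p = 0.200). Rian had the smallest p of the members. It was 1220, 1745 and 1516 in the knockout and 2061, 1542 and 1846 in wild type, with a log2 change of -0.27 (SE 0.152; adjusted p in edgeR = 0.547, exact permutation p = 0.200). Neat1 was at -0.24 (SE 0.198), Meg3 at -0.04 (SE 0.184), Mirg at -0.04 (SE 0.475), Kcnq1ot1 at -0.06 (SE 0.270), H19 at -0.19 (SE 0.516) and Gas5 at 0.09 (SE 0.127), and each of them overlapped between the groups. The median over the members was -0.12 and over all genes 0.01.

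Y308F removes a tyrosine that can be phosphorylated. Again 0 of 8 members passed edgeR's test and 0 had an unadjusted p under 0.05, and DESeq2 and voom called 0. Across all 16037 genes tested 0 passed (0%), with 706 at an unadjusted p under 0.05, and DESeq2 and voom also called 0. Meg3 was 3068, 3938 and 3081 in the mutants and 4440, 5448 and 3374 in the controls, overlapping, with a log2 change of -0.40 (SE 0.192; adjusted p in edgeR = 0.941, exact permutation p = 0.200). Mirg was 50.9, 86.8 and 82.4 in the mutants and 110, 95.8 and 87.5 in the controls. Every mutant was below every control, at -0.41 (SE 0.281; adjusted p in edgeR = 0.941, exact permutation p = 0.1, the lowest that 3 against 3 allows), and 10.4% of all genes had groups that did not overlap. H19 was at -0.76 (SE 0.498), Rian at -0.27 (SE 0.162), Kcnq1ot1 at -0.19 (SE 0.259), Malat1 at -0.17 (SE 0.198), Neat1 at -0.07 (SE 0.202) and Gas5 at -0.03 (SE 0.127). All 8 values were below 0, with a median of -0.23 against -0.03 over all genes. The median was -0.14 without Y308F control 1 and -0.34 without Y308F control 3. Without Y308F control 2, 6 members were below 0 and 2 above. Schwann cell and myelin markers had a median of -0.59 and adipocyte markers -0.55, with 0 past the threshold. Of the marker lists only fibroblast and matrix had a median above 0, at 0.04. The part of these cell types in the members' values was not tested.

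S205A removes a serine that can be phosphorylated, and each S205A group mixes both library types, with 1 library outside the 22 series. Again 0 of 8 members passed edgeR's test and 0 had an unadjusted p under 0.05, and DESeq2 and voom called 0 members. Across all genes 0 of 15709 passed (0%) by edgeR, 451 had an unadjusted p under 0.05, DESeq2 called 38 and voom 0. For Malat1 the groups as labelled gave -0.37 (SE 0.990; adjusted p in edgeR = 1.00), but this value rested on the 1 library of each group outside the 22 series: it was 1.59 without S205A control 4 and -1.45 without S205A mutant 1. With library series as a term it was 0.22 (SE 0.225). Within the 22 series the 3 mutants, at 12665, 13579 and 15985, all lay above the 3 controls, at 9230 to 10173, where 8.27% of all genes did not overlap, and the log2 change was 0.52 (SE 0.156, unadjusted p = 0.0110 and adjusted p = 1.00 in edgeR). In that fit 0 of 15704 genes passed (0%), with 535 at an unadjusted p under 0.05. There Meg3 was at 0.65 (SE 0.443), Rian at 0.64 (SE 0.5004), Mirg at 0.44 (SE 0.649), Gas5 at 0.18 (SE 0.171), Neat1 at -0.09 (SE 0.178) and Kcnq1ot1 at -0.22 (SE 0.358), and H19 did not pass the filter. None had an adjusted p under 0.05. In the same fit the fibroblast and matrix markers had a median of 1.33 and the Schwann cell and myelin markers 0.95, with 0 past the threshold in edgeR, and their part in the Meg3 and Rian values was not tested.

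The Y198F comparison cannot tell the mutation from the library type, since all 3 mutants belong to the 22 series and none of the 3 controls does. As labelled, 3 of 8 members passed edgeR's test, against 15.0% of all genes (2411 of 16050). They were Malat1 at -2.87 (SE 0.163; adjusted p in edgeR = 3.36e-06), H19 at -2.75 (SE 0.637; adjusted p in edgeR = 0.0150) and Meg3 at -0.43 (SE 0.119; adjusted p in edgeR = 0.0303). H19 had 4, 4 and 5 counts in the mutants against 42, 18 and 27 in the controls. It met the filter on low counts through the controls, in which it was high, so its call is no support. All 8 members were below 0, with a median of -0.44 against -0.00282 over all genes, and 7 had an unadjusted p under 0.05, against 29.1% of all genes. In single values 6 members did not overlap between the groups, against 30.6% of all genes, each at the lowest exact permutation p of 0.1 that 3 against 3 allows. Those not past the threshold were Kcnq1ot1 at -0.94 (SE 0.315), Mirg at -0.45 (SE 0.358), Gas5 at -0.31 (SE 0.105), Rian at -0.31 (SE 0.132) and Neat1 at -0.30 (SE 0.127). DESeq2 called 5 members, these 3 with Kcnq1ot1 and Neat1, against 17.8% of all genes, and voom called 4, these 3 with Kcnq1ot1, against 18.6%. Without Y198F mutant 3, edgeR called 5, these 3 with Kcnq1ot1 and Rian, against 12.6% of all genes. The call of Meg3 was lost in 5 of the 6 fits that left out 1 library, all but the one without Y198F mutant 3. The call of H19 was lost without Y198F control 1 (edgeR adjusted p = 0.117) and without Y198F control 3 (edgeR adjusted p = 0.0707). With all 8 groups in one fit 0 members passed edgeR's test, against 4.93% of all genes, and 3 had an unadjusted p under 0.05, against 21.6%, with Malat1 at -2.86 (SE 0.848; adjusted p in edgeR = 0.0560). The 8 fibroblast and matrix markers had a median of -0.75 in this comparison, with 0 past the threshold, and 2 of 7 Schwann cell and myelin markers were lower, with a median of -0.82. In the other direction 2 of 7 smooth muscle markers and 2 of 6 endothelial markers were higher, with medians of 0.42 and 0.29. Their part in the Meg3 value was not tested.

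Against S205A controls 1 to 3, which belong to the same library series but to another line, no member passed the threshold in the Y198F mutants. Here 0 of the 7 members tested passed edgeR's test and 0 had an unadjusted p under 0.05, and 0 of 15879 genes passed (0%), with 492 at an unadjusted p under 0.05. Malat1 was at 0.11 (SE 0.157), from 9055 to 11653 in the mutants and from 9230 to 10173 in these controls. Neat1 was at 0.22 (SE 0.161), Gas5 at 0.25 (SE 0.169), Kcnq1ot1 at -0.13 (SE 0.353), Mirg at 0.48 (SE 0.430), Meg3 at 0.69 (SE 0.379) and Rian at 0.72 (SE 0.480). H19 did not pass the filter there. Some marker lists were also above 0 in this comparison. Medians were 0.91 for fibroblast and matrix, 1.55 for adipocyte and 0.57 for Schwann cell and myelin markers, with 0 past the threshold in edgeR. Others did not go this way. Smooth muscle sums ran from 503050 to 679813 in the mutants and from 490056 to 900212 in these controls. Endothelial sums ran from 92855 to 99170 and from 22120 to 186949. The part of these cell types in the members' values was not tested. With the library series as a term in one fit of all 8 groups Malat1 was at 0.24 (SE 0.281), Meg3 at 0.18 (SE 0.431) and H19 at -1.501 (SE 1.08), and 0 of 18715 genes passed edgeR's test, with 438 at an unadjusted p under 0.05.

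**Figure D4:**
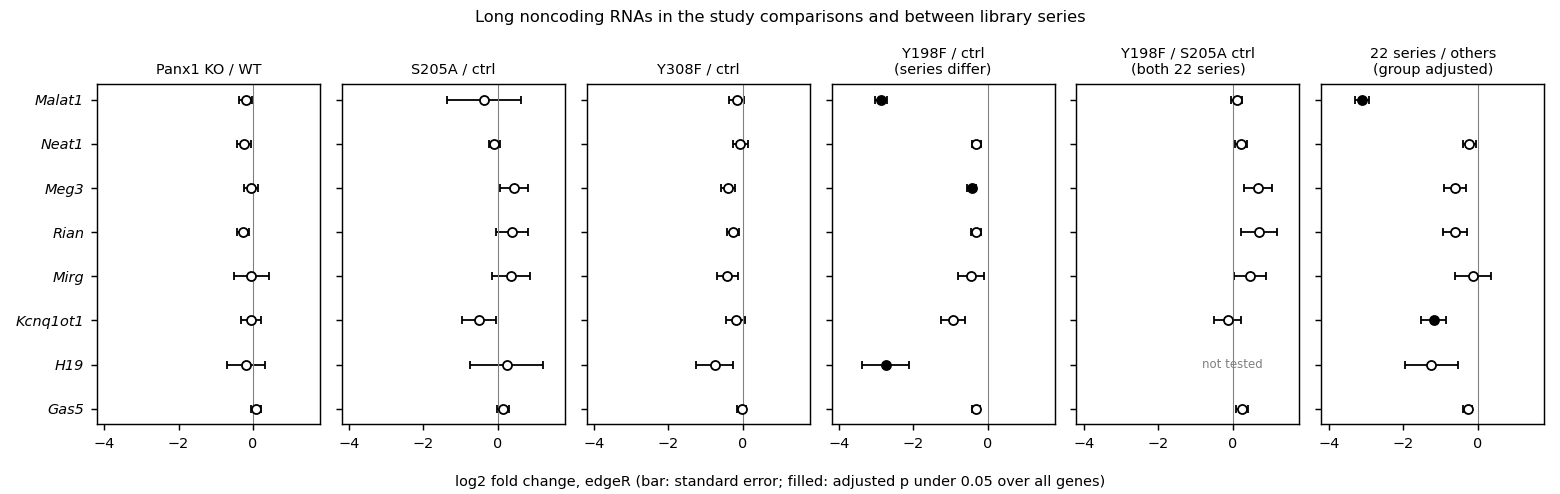
Log2 fold changes of the 8 long noncoding RNAs from edgeR (horizontal), with bars for the standard error and filled points for an adjusted p under 0.05 over all genes. Panels give the 4 mutant comparisons, the Y198F mutants against S205A controls 1 to 3 and the 22 series against the other libraries. Malat1 lies at -2.87 in Y198F and at -3.11 between library types, but at 0.11 where both groups belong to the 22 series.

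In the authors' deposited table for Y198F, Malat1 stood at -1.87 on the log2 scale (adjusted p = 0.4664). The log2 ratio of the Y198F mean to the mean of the 4 S205A controls was -1.87 for Malat1. The log2 ratio to the Y198F controls was -2.88. The mean of the 4 S205A controls includes control 4, outside the 22 series, at 124651. S205A controls 1 to 3, of the 22 series, ran from 9230 to 10173. Over the 8 members the authors' deposited table differed by at most 0.00364 from the ratio to the S205A controls and by up to 1.68 from the ratio to the Y198F controls. The authors' deposited table thus gave Meg3 as 0.41, Rian as 0.40 and Mirg as 0.40, all above 0, whereas the labelled controls gave values below 0. All 8 members were listed in the authors' deposited table of each of the 4 comparisons, and none had an adjusted p under 0.05 there.

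The 3 control groups outside the 22 series, wild type, Y198F controls and Y308F controls, were also compared with each other. By edgeR's test over the 3 groups 0 of 8 members passed and 0 had an unadjusted p under 0.05, DESeq2 and voom also called 0 members, and 0 of 16745 genes passed (0%), with 1178 at an unadjusted p under 0.05. DESeq2 called 61 genes and voom 0. Malat1 was 84217 ± 3481 in wild type, 77724 ± 10880 in the Y198F controls and 86726 ± 14620 in the Y308F controls (SD, n = 3 each). Differences between the mutant comparisons were tested in one fit of all 8 groups, an analysis chosen after seeing the data. Without the series term, pairs with Y198F cannot tell a difference in mutation response from library type. With the term, the series estimate rests on the S205A line. Without it, the mix of library types within the S205A groups also enters the error shared by all pairs. A lack of calls therefore does not show equal responses. No member passed in any of the 6 pairs, with or without the library series as a term. Of 18715 genes, 108 (0.577%) passed for the knockout minus Y198F without the term. In each other case the count was 0 (0%), 2 (0.0107%) or 3 (0.0160%). The largest Malat1 difference, Y198F minus Y308F without the series term, was -2.69 (SE 1.14; adjusted p in edgeR = 0.228), and it was 0.42 (SE 0.343; adjusted p in edgeR = 1.00) with the term.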

How the data were processed

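Poly(A) RNA of 26 mesenteric artery libraries was sequenced. Per the labels' protocols, the authors mapped reads to GRCm39 (STAR 2.7.9a) and made counts with Rsubread's featureCounts (version 2.20.0). The annotation release and strand setting are not given in the sources used here, so members that share exon bases with other genes (Gas5 with Zbtb37, Kcnq1ot1 with Kcnq1) are uncertain to that extent. The authors deposited whole-number counts for 57010 identifiers, a normalized signal (counts divided by a DESeq2 size factor) for 21031 genes, and 4 comparison tables. Per the labels' protocols these came from DESeq2 1.46.0, and the deposited columns hold log2 fold changes, a test score and p-values. Of the identifiers, 56310 matched GENCODE vM39.

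Groups came from the labels' titles and genotypes, and the library series from the labels' library names. Each comparison was tested on the deposited counts with edgeR 4.0.16 in R 4.3.3 (quasi-likelihood, TMM, filterByExpr with a minimum count of 10, robust), with only its own groups, and adjusted by the Benjamini-Hochberg method over all genes tested at 0.05. Single values were compared by two-sided exact permutation tests. Correlations used log2(normalized signal + 1). Patterns were compared on log2 CPM with a prior count of 2. The floor was 3 counts, and limits from it cover counting error only. Total counts ran from 14895969 to 23617902. The 30 pairs of libraries within groups differed by at least 15.0 times the sampling noise (chi-square per degree of freedom), so none was counted as a duplicate. Fits were tested on simulated data with 200 changed genes. Alternatives were DESeq2 1.42.0, voom with sample quality weights (limma 3.58.1), other scaling, no filter, a single fit of the 8 groups, a term for the series, a block for the replicate number, and leaving out each library. All 8 members were named in each comparison, plus up to 4 genes past the threshold of each related list by largest change and the 3 genes nearest in pattern; Snhg1, Igf2, Cdkn1c and Kcnq1 were the fixed partners of members, and Dlk1 and Rtl1 were added. The members and lists were chosen with earlier results of these data known.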

Additional observations from a re-analysis of the deposited data

Results flagged for a closer look

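Among 16 groups of values, the 8 members in each S205A group of 4 libraries, 4 had 1 library far from the other 3. Chance alone does this in about 1 in 20 groups. Malat1 in the S205A controls was 124651 in control 4 against 9230 to 10173 in the other 3, and Malat1 in the S205A mutants was 76430 in mutant 1 against 12665 to 15985. Kcnq1ot1 in the S205A controls was 482 in control 4 against 139 to 184. In these 3 cases the library that stood apart was the only one of its group outside the 22 series. Meg3 in the S205A mutants was 1456 in mutant 2 against 2746 to 2895, and there the 4 libraries did not divide by series.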

How the results depend on the processing

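The count of genes past the threshold changed by more than 1.5 times as follows. For the knockout it was 5, and 153 with DESeq2, 10 with voom, 243 without the filter, 18 with the replicate block and 1 to 5 without 1 library. For Y198F it was 2411, and 922 with all groups in one fit, 0 against S205A controls 1 to 3, 0 with the series as a term and 908 to 2128 without 1 library (908 without control 3, 1546 without control 1). For S205A it was 0, and 38 with DESeq2 and 0 to 1 without 1 library. For Y308F it was 0, and 7 without the filter and 0 to 1 without 1 library. Between series it was 2189, and 3696 with voom, 902 in the S205A line, 5953 with no group term and 282 to 2404 without 1 library. Between control groups it was 0, and 61 with DESeq2, 23 without the filter and 0 to 2 without 1 library.

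Replicate numbers did not pair the samples: same-numbered deviations correlated from -0.284 to 0.225. With the replicate block the Y198F count was 1760, and 3 members passed, Malat1, H19 and Kcnq1ot1 (edgeR adjusted p = 0.0226), while Meg3 did not (adjusted p = 0.0676).

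Of 734 member fold changes under alternatives, 665 kept direction and side of the threshold, 16 lost it, 16 gained it and 37 changed sign. The cause was not tested. With the replicate block, Mirg in the knockout was 0.14 and Malat1 in S205A 0.31. With voom, Kcnq1ot1 in the knockout was 0.00278, Malat1 in S205A 0.43 and H19 in S205A -0.14. For Y198F against S205A controls 1 to 3, Malat1 was 0.11, Neat1 0.22, Meg3 0.69, Rian 0.72, Mirg 0.48 and Gas5 0.25. With the series as a term, Malat1 was 0.24, Meg3 0.18, Rian 0.31 and Kcnq1ot1 0.25 in Y198F, and Malat1 0.22 in S205A. Within the 22 series Malat1 in S205A was 0.52. Without 1 library the ranges that crossed 0 were, in the knockout, Gas5 -0.0406 to 0.15, H19 -0.60 to 0.15, Kcnq1ot1 -0.24 to 0.18, Meg3 -0.20 to 0.19 and Mirg -0.44 to 0.49. In S205A they were H19 -0.22 to 0.64, Kcnq1ot1 -0.77 to 0.0339 and Malat1 -1.45 to 1.59. In Y308F they were Gas5 -0.10 to 0.0390, Kcnq1ot1 -0.39 to 0.0938 and Neat1 -0.21 to 0.0892, and between series Mirg -0.37 to 0.0704. Low counts limit H19 and Mirg.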
